A study of Mus musculus with 49 samples.

Results

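Single late 2-cell mouse embryos in which the TATA-binding protein TBP had been depleted (TBP LOF) were compared with embryos that had received a mouse IgG (CONTROL), and the genes were sorted by function, biotype, level, length and promoter. Embryos were chosen by their labels and a minimum of 500000 counted reads. This left 18 of the 19 labelled embryos of the TBP experiment, 9 LOF and 9 CONTROL, of 49 samples in the series. All were F1(C57BL/6JxCBA/H) embryos. LOF zygotes were injected with an antibody against TBP and CONTROL zygotes with mouse IgG, and both groups received mRNA for mCherry-Trim21 after 4 h of culture, so CONTROL embryos also carried Trim21. In this method, Trim-Away, the ubiquitin ligase Trim21 leads a protein bound by an antibody to degradation. Embryos were lysed 48 h after hCG (human chorionic gonadotropin, which induces ovulation), in buffer that held ERCC spike-ins, a set of synthetic transcripts added in equal amount to every embryo. Depletion acts on the protein and may be partial or transient. The embryos came from 3 collections and were processed together, and the labels do not tie single embryos to a collection.

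TBP is the subunit of TFIID that binds the TATA box at promoters of RNA polymerase II, and it also sits in the initiation complexes of RNA polymerases I (SL1) and III (TFIIIB). The mouse 2-cell embryo is the stage of major zygotic genome activation (ZGA), when the embryo starts to transcribe its own genes widely while RNA made in the oocyte is being cleared. RNA present at this stage is therefore a mixture of stored maternal RNA and newly made RNA.

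Only reads from the 5' ends of transcripts were counted (Smart-seq+5'), so counts do not scale with transcript length. Counted reads per embryo lay between 1160150 and 5434808. Values below are counts divided by ERCC size factors (normalized counts), so that an embryo with less RNA keeps its lower values. TMM scaling, which takes most genes as unchanged, is given beside it. It shows how a gene moved relative to the other genes. Fold changes are LOF over CONTROL on the log2 scale, with the standard error (SE) and the adjusted p of edgeR's quasi-likelihood test. A gene is called lower or higher at an adjusted p under 0.05. It is called held when it was not called and the 95% interval of its fold change lay within 2-fold in both directions. Without molecular identifiers, and with each embryo as 1 library, p-values measure the spread between these embryos.

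Tbp RNA itself was lower in LOF, with 6.53, 82.5 and 149.5 normalized counts (lowest, median, highest) against 193.8, 277.0 and 666.2 in CONTROL, and all 9 LOF embryos lay under the lowest CONTROL embryo (-2.14, SE 0.37, adjusted p = 5.26e-06). Protein, on which the method acts, was not measured in these libraries. The embryos differed in other ways that touch the results. ERCC took 2.67% to 6.12% of counted reads in LOF (median 4.38%, n = 9) and 2.22% to 3.25% in CONTROL (median 2.82%, n = 9), a difference past the threshold (two-sided exact permutation test, p = 0.000823, 0.00247 after Benjamini-Hochberg adjustment over 3 tests). The number of genes detected did not pass (14094 to 16788 in LOF, 14612 to 17295 in CONTROL, exact permutation p = 0.168, and p = 0.142 with all embryos thinned to 1160150 reads). LOF embryos 9 and 11 stood furthest from the CONTROL embryos. Reads of Y-linked genes (at least 5) were found in 8 of 9 CONTROL but in 3 of 9 LOF embryos, while reads of Xist ranged from 0 to 28 in LOF and from 0 to 42 in CONTROL, and no embryo was assigned a sex. Fewer embryos of 1 sex and lower Y-linked RNA in LOF cannot be told apart by these reads. Counts were therefore also taken without LOF embryos 9 and 11, and with Y-linked reads as a covariate. This covariate was a yes or no for at least 5 such reads, not their number. All 9 markers of the late 2-cell embryo passed the filter. Of 18 markers of cumulus and granulosa cells, 7 were at 0 in every embryo, Inha and Fshr among them, and 6 passed the filter, with a summed level of 18.9 to 49.5 in LOF and 45.6 to 138.6 in CONTROL. This sum was mostly Amhr2 (mean of 23.3 in LOF and 52.8 in CONTROL), while Star, Foxl2 and Cyp19a1 had means under 2 in both groups. Tnfaip6 had means of 1.67 in LOF and 9.56 in CONTROL, and Kitl of 3.15 and 3.41. Of the 6, 3 had a negative fold change and 2 were lower (33.3%, beside 29.8% of all genes). Of 14 stromal, blood and oviduct markers, 6 were at 0 in every embryo and 6 passed the filter. Their sum (95.1 to 220.3 in LOF, 336.4 to 876.5 in CONTROL) was mostly Epcam, an epithelial adhesion gene (LOF median 121.2, CONTROL median 517.7). Whether other cells had a part in any result was not tested.

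**Figure D1:**
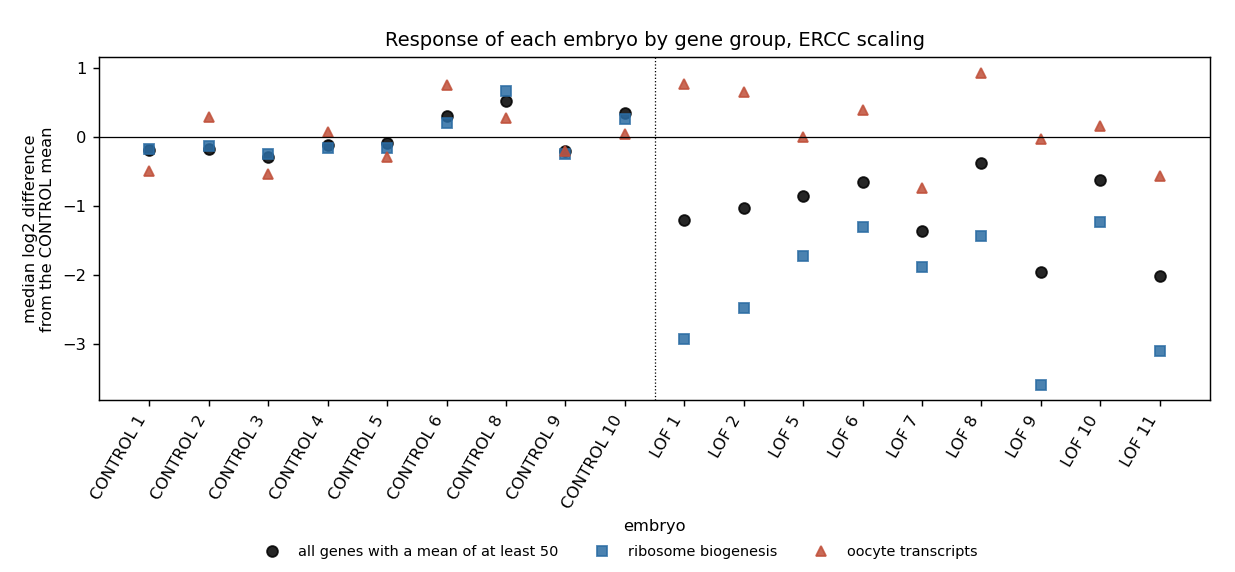
Median log2 difference of each embryo from the CONTROL mean (y axis, ERCC scaling, pseudocount of 1) over genes with a mean of at least 50 normalized counts (black circles, 3514 genes), ribosome biogenesis genes (blue squares) and oocyte transcripts (red triangles), with 1 column per embryo. Ribosome biogenesis genes lay between -3.60 and -1.23 in the 9 LOF embryos and between -0.25 and 0.67 in the 9 CONTROL embryos, while oocyte transcripts overlapped between the groups.

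The fall was broad. Of 18447 genes tested, 5497 were lower (29.8%), 258 higher (1.4%) and 1379 held (7.48%), and the median gene changed by -0.70. The fit with Y-linked reads as a covariate gave 4000 lower, 157 higher and 545 held genes. Of the 3514 genes with a mean of at least 50 normalized counts, 2091 were lower (59.5%), 44 higher and 751 held (21.4%), with a median of -1.08. In 1283 genes (6.96%) every LOF embryo lay under every CONTROL embryo, and in 2 genes (0.0108%) every LOF embryo lay above. Over the 3514 genes, single LOF embryos had median log2 differences from -2.02 to -0.37 and CONTROL embryos from -0.29 to 0.52, and the groups did not overlap. Relative to the other genes (TMM), 2382 genes were lower (12.9%) and 2437 higher (13.2%). Of the 1379 held genes, 875 were higher under TMM, while the median of all genes moved from -0.70 to 0.13. Directions below are those of ERCC scaling unless TMM is named.

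The 10 lower protein-coding genes with the smallest adjusted p, among those with a mean of at least 50, had no LOF embryo above the lowest CONTROL embryo. Their roles were mixed. Rpl14, a protein of the large ribosomal subunit, had 15.2 normalized counts in the lowest LOF embryo, a median of 39.7 and 100.7 in the highest, against 349.3, 479.4 and 800.8 in CONTROL. It was 9.76-fold lower (log2 fold change -3.29, SE 0.33, adjusted p = 1.26e-10). Polr2h, a subunit that RNA polymerases I, II and III share, had 23.0, 42.5 and 86.9 in LOF and 236.3, 352.8 and 598.6 in CONTROL (-2.87, SE 0.32). Picking genes by the smallest adjusted p favours groups that do not overlap. Over all genes, 6.96% had every LOF embryo under every CONTROL embryo. Atg3, an enzyme that couples LC3 to lipid in autophagy, had a LOF median of 19.4 and a CONTROL median of 240.5 (-3.49). The ubiquitin protease gene Usp29, which is imprinted and expressed from the paternal allele, fell from a median of 117.0 to 8.52 (-3.93). The others were Prkcd (protein kinase C delta, -3.38), Pibf1 (a centrosomal protein, -3.71), the zinc finger gene Zfp7 (-3.59), Clpp (the protease of the mitochondrial matrix, -3.03), Pmm1 (phosphomannomutase, -2.87) and Sdad1 (ribosome biogenesis, -3.02).

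**Figure D2:**
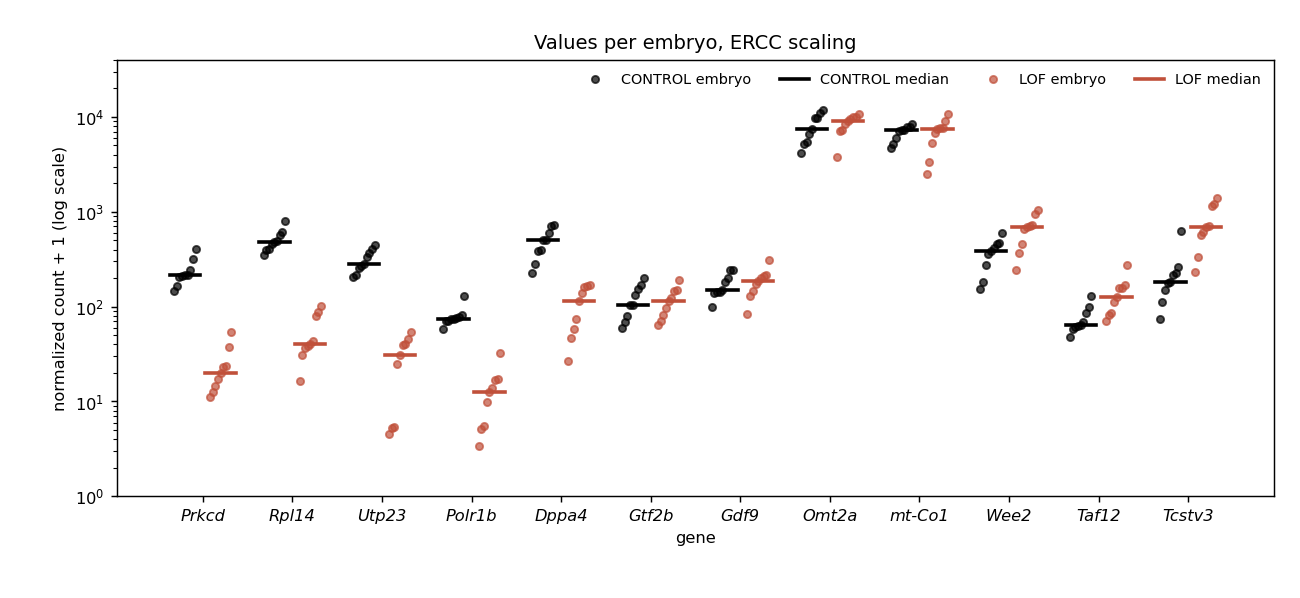
Normalized counts plus 1 (log axis, ERCC scaling) of 12 genes in each of 9 CONTROL (black) and 9 LOF (red) embryos, with lines at the medians. From Prkcd to Dppa4 the groups did not overlap, from Gtf2b to mt-Co1 they lay over each other, and Wee2, Taf12 and Tcstv3 were higher in LOF with overlapping groups.

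The machinery that makes ribosomes fell nearly throughout. Of 77 ribosome biogenesis genes tested, 76 were lower (98.7%) and none held, with a median of -2.0, beside 29.8% lower among all genes and 59.5% among those with a mean of at least 50. The gene not called, Nol3 (-0.74, SE 1.06), had few reads, with a mean of 1.65 normalized counts, and was listed at 0 in 6 LOF and 5 CONTROL embryos. The list was made by gene symbol, and Nol3 may not belong to it by function. Summed over the list, LOF embryos had 2521, 5496 and 9494 normalized counts (lowest, median, highest) and CONTROL embryos 16679.8, 17992 and 31377, with all 9 LOF embryos under the lowest CONTROL embryo. The sums of many other lists were parted in the same way, among them nuclear oxidative phosphorylation and nuclear pore and transport. Utp23, a factor of small subunit processing, had a LOF median of 29.6 and a CONTROL median of 283.4 (-3.52, SE 0.39, adjusted p = 1.01e-09). The nucleolar proteins nucleolin (Ncl, -2.30), fibrillarin (Fbl, which methylates ribosomal RNA, -2.03) and Nop56 (-1.39) were lower too. Nucleophosmin (Npm1), the most abundant member by count, fell less. It had 738, 1076 and 2150 in LOF and 1984, 2326 and 3614 in CONTROL (-0.95, SE 0.29). With Y-linked reads as a covariate its fold change was -0.92, and its adjusted p went from 0.00766 to 0.0567. Under TMM, 62 of the 77 were lower and 0 higher, and the list's median was -1.16. With Y-linked reads as a covariate 75 of the 77 were lower, and without LOF embryos 9 and 11 it was 76.

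The genes of RNA polymerase I, which transcribes ribosomal RNA, fell in all 14 cases (median -2.0), beside 59.5% lower among genes with a mean of at least 50 and 29.8% of all genes. Polr1b, the second largest subunit, went from 57.5, 73.5 and 129.2 in CONTROL to 2.44, 11.6 and 31.1 in LOF (-2.75, SE 0.38, adjusted p = 9.93e-08). Its largest subunit, Polr1a, changed by -1.66, and Polr1c and Polr1d, which RNA polymerase III shares, by -1.68 and -2.20. Of the 27 genes of RNA polymerase III and its factors, 22 were lower (81.5%) and 1 held (median -1.80). Its subunits Polr3a (-1.80), Polr3d (-2.73) and Polr3k (-2.48) fell. Brf1, the partner of TBP in TFIIIB, had medians of 10.1 in LOF and 19.2 in CONTROL (-1.29, SE 0.48, adjusted p = 0.032). The call on Brf1 was lost without LOF embryos 9 and 11 (-0.95, adjusted p = 0.097). It was also lost with Y-linked reads as a covariate, at a fold change of -1.40 (adjusted p = 0.0667). Maf1, a repressor of RNA polymerase III, had medians of 11.4 and 14.8 and was not called (-0.73, SE 0.45, adjusted p = 0.229). The 6 short RNAs tested among the known products of RNA polymerase III and other short RNAs had 0 calls. In this poly(A)-primed protocol their median level was 4.21 normalized counts, and the highest mean was that of Rn7s1 (58.5).

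Of 84 cytosolic ribosomal protein genes, 78 were lower (92.9%) and 2 held (median -1.82), beside 59.5% lower among genes with a mean of at least 50. Their reads made up 0.784% to 2.57% of the gene reads of LOF embryos and 2.97% to 4.13% of those of CONTROL embryos, a share that does not depend on ERCC. The groups did not overlap in it. Rps6, of the small subunit, had 108.2, 259.3 and 441.0 in LOF and 710.2, 1009 and 2039 in CONTROL (-2.04, SE 0.32). Rpl3 fell less, with medians of 50.2 and 123.6 (-1.11, SE 0.33). Rplp0, a stalk protein, was one of the 2 held genes, with 1289, 1346 and 3196 in LOF and 1365, 1790 and 3678 in CONTROL (-0.29, SE 0.29, adjusted p = 0.499), and Rpl41 was the other. Ribosomal protein genes have many near-identical pseudogenes, so single members may share reads with them. Rps4l, annotated as a transcribed processed pseudogene, fell as well (-2.53). Of 78 mitochondrial ribosomal protein genes, 51 were lower (65.4%) and 4 held (median -1.39), at a median level of 35.8 normalized counts. Of protein-coding genes with means between 21.9 and 60.8, 49.4% were lower (median -0.89). Under TMM 26 of the 78 were lower and 3 higher. In this list Mrpl54 had the smallest adjusted p, with LOF embryos between 1.14 and 6.09 and CONTROL embryos between 16.1 and 85.2 (-3.92, SE 0.42).

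**Figure D3:**
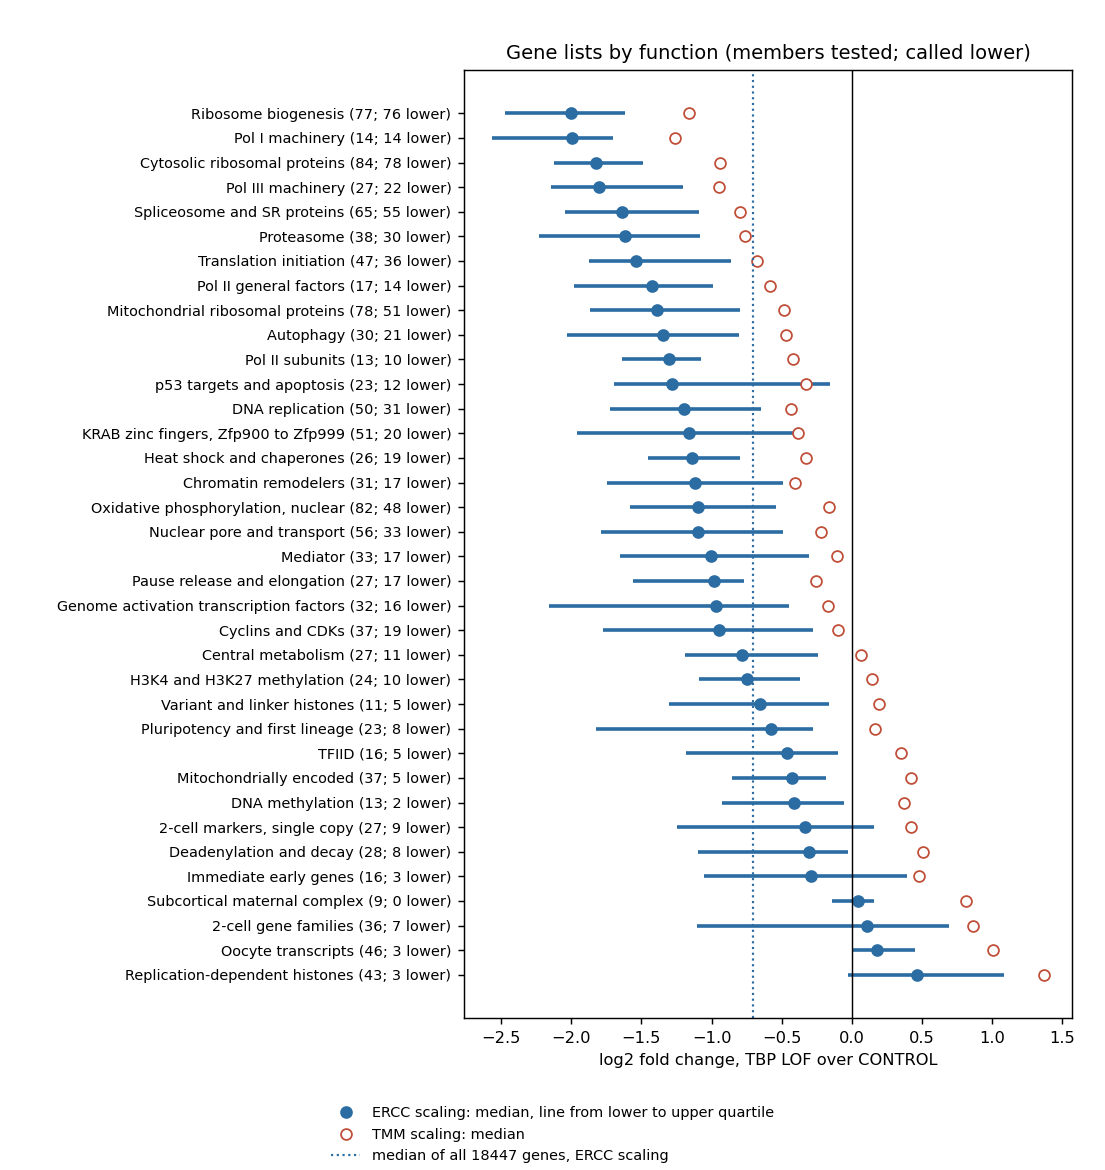
Median log2 fold change (LOF over CONTROL) of gene lists by function, with ERCC scaling (filled points, lines from the lower to the upper quartile) and TMM scaling (open points), and the median of all 18447 genes as a dotted line. Lists are ordered from ribosome biogenesis (-2.0, 76 of 77 lower) at the top to replication-dependent histones (0.47, 3 of 43 lower) at the bottom, and under TMM the lists down to cyclins and CDKs lay left of 0 while oocyte transcripts moved to 1.01.

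Other lists of general cell functions followed in order of their medians. Spliceosome and SR protein genes had 55 of 65 lower (median -1.64), proteasome genes 30 of 38 (-1.62) and translation initiation genes 36 of 47 (-1.54). In these lists, Snrpd2, a core protein of small nuclear ribonucleoproteins, changed by -2.30, the proteasome subunit Psma6 by -2.71 and the initiation factor subunit Eif3e by -2.94. Eif4e1b, an oocyte form of the cap-binding protein, went the other way with a LOF median of 40.7 and a CONTROL median of 24.7 (1.08, SE 0.38, adjusted p = 0.0242). With Y-linked reads as a covariate its fold change was 1.00 and the call was lost (adjusted p = 0.139). Autophagy genes had 21 of 30 lower (-1.34), among them Map1lc3b (-1.61), the LC3 protein that Atg3 acts on. DNA replication genes had 31 of 50 lower (-1.20). Gins1, of the replicative helicase, was lowest among them (-4.13), with LOF embryos between 1.44 and 6.30 and CONTROL embryos between 12.1 and 142.7. Heat shock and chaperone genes had 19 of 26 lower (-1.14) and nuclear pore and transport genes 33 of 56 (-1.10). For comparison, 59.5% of genes with a mean of at least 50 were lower, so DNA replication (62.0%) and nuclear pore genes (58.9%) were near the background of well-expressed genes.

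Nuclear genes of oxidative phosphorylation and the mitochondrial genome differed. Of 82 nuclear genes, 48 were lower (58.5%) and 8 held (median -1.10), close to the 59.5% and -1.08 of all genes with a mean of at least 50. Cox4i1 had 14.5, 50.2 and 93.4 in LOF and 142.3, 251.7 and 356.6 in CONTROL (-2.25, SE 0.32), and Cox7c changed by -2.65, but Cox8a, of the same cytochrome c oxidase, was held (medians 1345 and 1639, -0.24, SE 0.29). Of 37 genes on the mitochondrial genome, which has its own polymerase, 5 were lower, all 5 of them tRNA genes, and 15 were held (median -0.43). Among its 13 protein-coding genes, 0 were lower and 11 held. The mitochondrial subunit mt-Co1 of the same oxidase had 2525, 7416 and 10679.7 in LOF and 4699, 7221 and 8394 in CONTROL (-0.03, SE 0.31), and the groups lay over each other. mt-Cytb (-0.08), mt-Nd1 (0.09), mt-Nd5 (-0.08), mt-Nd2 (-0.19) and mt-Atp8 (-0.11), the other mitochondrial genes among the 10 held genes with the highest means, were similar. With Y-linked reads as a covariate, 11 of the 37 were lower and 3 held (median -0.74). The mitochondrial share of gene reads was 6.26% to 14.7% in LOF and 3.72% to 13.1% in CONTROL. In CONTROL embryos 8, 9 and 10 it was 3.72%, 4.28% and 4.98%, and in the other CONTROL embryos 8.67% or more.

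The factors that work with TBP at promoters of RNA polymerase II were divided. Of 17 general factors, 14 were lower (82.4%) and 3 held (17.6%), with a median of -1.42. Among genes with a mean of at least 50, 59.5% were lower and 21.4% held. The 3 held factors were Gtf2b (TFIIB) and the TFIIA genes Gtf2a1 and Gtf2a2. Gtf2b had 63.7, 112.5 and 192.0 in LOF and 58.8, 103.8 and 200.0 in CONTROL (-0.05, SE 0.30, adjusted p = 0.925). Gtf2a1 had medians of 260.6 and 300.6 (-0.11, SE 0.29). In contrast Gtf2h5, of the DNA repair and initiation factor TFIIH, had no LOF embryo above 149.5 and no CONTROL embryo under 256.4 (-2.27, SE 0.33). Of 13 subunits of RNA polymerase II, 10 were lower (76.9%, median -1.31). Its largest subunit, Polr2a, had medians of 37.7 and 52.8 and was not called (-0.62, SE 0.33, adjusted p = 0.157). Of the 33 Mediator genes, 17 were lower (51.5%) and 8 held (24.2%, median -1.01), near the 59.5% and 21.4% of genes with a mean of at least 50. Med6, of the head module, was lowest by adjusted p (-2.69).

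Of the 16 TBP-associated factors (TAFs) tested, 5 were lower (31.2%), 1 higher and 5 held (median -0.46), a share of lower genes near the 29.8% of all genes and under the 59.5% of those with a mean of at least 50. Taf8 had 4.31, 13.2 and 20.1 in LOF and 36.7, 59.3 and 97.1 in CONTROL, with no overlap (-2.30, SE 0.35, adjusted p = 7.12e-07). Taf9 (-1.56) and Taf7 (-1.52), which contacts Taf1, were lower as well. Taf12, a histone-fold subunit, rose: it had 69.7, 124.1 and 276.2 in LOF and 46.7, 63.1 and 127.3 in CONTROL, with 4 LOF embryos above the highest CONTROL embryo (0.88, SE 0.31, adjusted p = 0.0222). Its fold partner Taf4 was held (medians 55.0 and 51.0, -0.10, SE 0.33), as were Taf10 (-0.20) and Taf13 (-0.22). Taf1, the largest subunit, is X-linked and was not called (-0.69, SE 0.39, adjusted p = 0.184), but was called lower with Y-linked reads as a covariate (adjusted p = 0.0232). The paralog Tbpl1 had medians of 40.6 and 46.4 (-0.53, SE 0.34, adjusted p = 0.248).

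Transcripts stored in the oocyte resisted. Of 46 tested, 3 were lower (6.52%), 2 higher and 19 held, with a median of 0.18, beside 29.8% lower and -0.70 for all genes. Summed over the list, LOF embryos had 19277, 40588 and 60282 normalized counts and CONTROL embryos 20392, 32629.9 and 56046, so the groups lay over each other. Omt2a, an abundant oocyte and 2-cell transcript, had 3747, 9033 and 10832 in LOF and 4164, 7473 and 11946 in CONTROL (0.09, SE 0.31). Gdf9, a growth factor of the oocyte, had 83.4, 183.0 and 306.9 in LOF and 98.4, 149.9 and 240.8 in CONTROL (0.09, SE 0.29), and Dppa3, which protects maternal DNA methylation, had medians of 3291 and 4098 and was held (-0.31). Wee2, an oocyte kinase that holds meiotic arrest, was higher, with 243.5, 687.9 and 1048 in LOF against 153.9, 382.9 and 602.1 in CONTROL (0.82, SE 0.30, adjusted p = 0.0307). Bmp15, an X-linked partner of Gdf9, had medians of 535.2 and 430.3 and did not pass (0.69, SE 0.30, adjusted p = 0.0753), but passed without LOF embryos 9 and 11 (adjusted p = 0.0159). The 3 lower genes were Zp3, Kpna7 (-0.89) and Zar1l (-1.76). With Y-linked reads as a covariate the fold change of Kpna7 was -0.84 and its call was lost (adjusted p = 0.121). Zp3, a protein of the zona pellucida, had LOF embryos between 5.98 and 56.9 and CONTROL embryos between 63.1 and 147.0 (-1.83, SE 0.34), whereas its zona partner Zp2 had medians of 45.5 and 33.1 (0.42, SE 0.34, adjusted p = 0.395). Under TMM, 31 of the 46 were higher and 1 lower, with a median of 1.01, and as a share of gene reads the list made up 2.49% to 5.24% in LOF and 1.42% to 3.88% in CONTROL. With Y-linked reads as a covariate 2 of the 46 were lower, 1 higher and 6 held (median 0.21), and without LOF embryos 9 and 11 it was 3, 4 and 15.

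The 9 genes of the subcortical maternal complex, a protein assembly of the egg cortex, had 0 lower, 1 higher and 6 held, with a median of 0.05. Nlrp5 (Mater) had 37.1, 84.2 and 192.0 in LOF and 35.1, 89.5 and 189.2 in CONTROL (0.08, SE 0.32). Ooep (0.16) and Tle6 (-0.32) were held too. Zbed3 was the higher gene (medians 2272 and 1698, 0.87, SE 0.33, adjusted p = 0.0352). With Y-linked reads as a covariate its fold change was 0.79 and the call was lost (adjusted p = 0.172). Genes of deadenylation and maternal RNA decay had 8 of 28 lower (28.6%) and 8 held (median -0.30), at a median level of 54.9 normalized counts. For comparison, 59.5% of genes with a mean of at least 50 and 29.8% of all genes were lower. The m6A reader Ythdf2 fell from a median of 432.4 to 124.4 (-1.86, SE 0.32). Btg4, an adaptor that brings the deadenylase to maternal RNA, had medians of 863.8 in LOF and 465.3 in CONTROL and did not pass (0.66, SE 0.32, adjusted p = 0.112), and Cnot7, a subunit of that deadenylase, was held (medians 325.9 and 339.5).

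Genes switched on at the 2-cell stage included lower and higher members. Dppa2 and Dppa4, which act together as early activators, both fell. Dppa4 had 25.4, 114.9 and 166.3 in LOF and 227.4, 499.3 and 725.8 in CONTROL (-2.20, SE 0.33), and Dppa2 changed by -2.32 (SE 0.35). In the Pramel family, 5 of 6 genes tested were lower and 1 higher, the X-linked Pramel3 with few reads (mean of 2.04 over all embryos, 5.33, SE 1.27). With Y-linked reads as a covariate the fold change of Pramel3 was 1.94 and its call was lost (adjusted p = 0.27). Pramel7 was among the lower genes, with LOF embryos between 6.53 and 99.3 and CONTROL embryos between 149.3 and 299.3 (-2.71, SE 0.37). In the Obox homeobox family, 2 of 7 were lower (28.6%), at a median level of 196.2 normalized counts. For comparison, 59.5% of genes with a mean of at least 50 and 29.8% of all genes were lower. Obox8 had 2.18, 68.6 and 224.9 in LOF and 412.0, 640.4 and 965.5 in CONTROL (-3.22, SE 0.44), and Obox6 changed by -1.98, while Obox5, which the oocyte also holds, had medians of 561.3 and 324.0 (0.36, SE 0.33, adjusted p = 0.463). Of 5 Zscan4 and 5 Tdpoz genes, 0 were called. Members of these families are near-identical, so that reads may have been divided between copies and single values are uncertain.

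Several of the 10 most significant higher genes came from such families. A run of 12 protein-coding genes tested at the end of chromosome 13 (chr13:119827961-120318178, GRCm38, from AF067063 to Tcstv3) was picked after its values were seen. All 12 had a positive fold change, 6 were higher and 0 lower, with a median of 1.07, beside 1.4% higher among all genes. AF067061 had 112.7, 216.3 and 687.7 in LOF and 8.35, 47.9 and 263.1 in CONTROL (2.26, SE 0.43, adjusted p = 2.72e-05). Tcstv3, a 2-cell gene at chr13:120316878-120318178 on the plus strand, had 233.4, 691.1 and 1410.1 in LOF and 73.5, 182.5 and 628.3 in CONTROL (1.77, SE 0.34), with 5 LOF embryos above the highest CONTROL embryo. BC147527 lay between them (1.44, SE 0.33). The groups overlapped in each of these. With Y-linked reads as a covariate 9 of the 12 were higher, and without LOF embryos 9 and 11 it was 10 of 12. Under TMM all 12 were higher. Copies in such runs can share reads, so the 12 do not count as separate results.

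On other chromosomes, Gm5662 (chromosome 12) had medians of 230.0 in LOF and 42.9 in CONTROL (1.86, SE 0.42) and Gm13078 (chromosome 4) medians of 132.4 and 49.9 (1.43, SE 0.36). In the X-linked Fthl17 family, relatives of the ferritin heavy chain, 4 of 5 genes tested were higher, beside 1.4% of all genes. Fthl17f was listed at 0 in the lowest LOF embryo, with a median of 92.9 and a highest value of 366.1, and had a CONTROL median of 0 and a highest value of 91.3 (2.96, SE 0.74, adjusted p = 0.0012). Its fold change went to 0.38 (adjusted p = 0.794) with Y-linked reads as a covariate and it missed the threshold with DESeq2 (adjusted p = 0.143). Its highest CONTROL value was in embryo 3, the CONTROL embryo without Y-linked reads. LOF embryos 1, 10 and 11, which had at least 5 such reads, had 0, 20.3 and 0 normalized counts of it. For the rest of the family, no value with the covariate is given here. The X-linked AU015836 kept its call with that covariate (medians 57.4 and 28.0, 1.44, SE 0.37, becoming 1.52). Ceacam20 (1.26) and Usp17lc (1.38), the latter of a 2-cell family, lost theirs. Their fold changes with the covariate were 1.15 and 1.00 (adjusted p = 0.0663 and 0.182). The other gene among the 10 was Pkd2l2 (1.30), of the polycystin family, which kept its call. Among histones, replication-dependent genes had 3 lower (6.98%), 5 higher (11.6%) and 0 held of 43 tested (median 0.47), beside 29.8% lower and 1.4% higher among all genes, with a median level of 2.44 normalized counts, and these transcripts mostly lack a poly(A) tail. The variant histone gene H2afx had medians of 216.5 and 95.3 (0.98, SE 0.31, adjusted p = 0.0121).

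Of 16 immediate early genes, 3 were lower (18.8%, median -0.29), at a median level of 3.96 normalized counts. For comparison, 12.9% of all genes with means between 1.5 and 4.64 were lower (median -0.54). Myc, a transcription factor of growth, was one of the 3 lower immediate early genes. It had 0 normalized counts as LOF median and 4.79 as highest value, against 8.07, 14.3 and 48.4 in CONTROL, with no overlap (-4.46, SE 0.71, adjusted p = 1.28e-06). Of 37 cyclins and CDKs and their regulators, 19 were lower (51.4%), 3 held and 1 higher, the kinase Wee2 described above (median -0.95). Their median level was 40.7 normalized counts, and 48.8% of genes with a mean of at least 10 were lower. Cyclin B1 (Ccnb1) fell from a median of 1223 to 375.6 (-1.64, SE 0.31) and cyclin A2 (Ccna2) from 861.7 to 410.1 (-1.05, SE 0.30). Of 23 p53 targets and apoptosis genes, 12 were lower (52.2%) and 3 held (median -1.28), between the 29.8% of all genes and the 59.5% of those with a mean of at least 50. Trp53 itself fell (medians 21.1 and 75.2, -1.59), as did its ubiquitin ligase Mdm2 (-1.65), but the Mdm2 relative Mdm4 was held (medians 1477 and 1314, 0.18, SE 0.29). Of 23 pluripotency and first lineage genes, 8 were lower (34.8%) and 2 held (median -0.57), near the 29.8% and -0.70 of all genes. Klf5 (-2.32, SE 0.46) and the trophectoderm factor Tfap2c (-2.12) fell, while Yap1, a coactivator the oocyte also supplies, was held (medians 288.3 and 273.8, -0.05, SE 0.30).

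Chromatin regulators held genes of both kinds. Of 31 chromatin remodeler genes, 17 were lower (54.8%) and 3 held (median -1.12), near the 59.5% and -1.08 of genes with a mean of at least 50. Ino80c, a subunit of the INO80 complex, had LOF embryos between 3.41 and 21.3 and CONTROL embryos between 58.0 and 147.8 (-2.92, SE 0.34), while Arid1a, of the SWI/SNF complex, was held (medians 160.7 and 193.3, -0.14, SE 0.29). Of 24 genes of H3K4 and H3K27 methylation, 10 were lower (41.7%) and 4 held (-0.75), Kmt2d among the held (-0.37). Of 13 genes of DNA methylation and its removal, 2 were lower (15.4%, median -0.41) and 1 held, the oxidase Tet3 of the zygote (medians 171.7 and 209.0, -0.08, SE 0.29). The median level was 42.1 normalized counts in the H3K4 and H3K27 list and 25.6 in the DNA methylation list. For comparison, 49.4% of protein-coding genes with means between 21.9 and 60.8 were lower (median -0.89). Of 51 zinc finger genes from Zfp900 to Zfp999, 20 were lower (39.2%) and 4 held (-1.16), with a median level of 11.2 normalized counts. Among protein-coding genes with means between 7.65 and 21.9, 33.3% were lower (median -0.71).

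The remaining lists are given beside 59.5% of genes with a mean of at least 50 and 29.8% of all genes. Pause release and elongation genes had 17 of 27 lower (63.0%, median -0.98), transcription factors of genome activation 16 of 32 (-0.97) and central metabolism genes 11 of 27 (-0.78). Variant and linker histone genes had 5 of 11 lower (-0.66) and single-copy 2-cell markers 9 of 27 (-0.33).

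By level, the share of lower genes grew and so did the size of the fall. Genes were put in 5 equal groups by their mean over all 18 embryos. The shares of lower genes were 7.32%, 12.9%, 25.1%, 44.7% and 59.0% from the lowest means (0.177 to 1.5) to the highest (from 47.0). The median fold changes were -0.42, -0.54, -0.62, -0.84 and -1.07. Held genes made up 0.488%, 0.217%, 0.949%, 14.3% and 21.4% in the same order, as an interval within 2-fold mostly needs many reads. The held calls in the lowest group rest on few reads. The shares depend on depth, since a gene with few reads seldom passes a test, while the medians do not need a call. Grouped by the CONTROL mean instead, the shares ran from 2.76% to 66.2% and the medians from 0.05 to -1.23, a grouping that by itself places genes with high CONTROL values at the top. Under TMM the median of the group with the highest means was -0.21 and that of the lowest 0.37.

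By length, the longest genes were held most often. Of protein-coding genes with a mean of at least 50, split at the boundaries of 5 equal length groups, 65.3%, 69.9%, 68.0%, 56.2% and 33.3% were lower from the shortest (up to 7769 bases) to the longest genes (from 70824 bases), and 14.9%, 15.6%, 18.3%, 22.4% and 44.7% were held. The medians were -1.28, -1.31, -1.22, -0.96 and -0.32. Among the 456 longest genes, 66 were lower and 197 higher under TMM. Lower genes had a median length of 17.2 kb (quartiles 8.26 and 34.1 kb, 2000 genes), held genes 33.3 kb (12.8 and 80.8 kb, 708 genes) and higher genes 14.2 kb (33 genes). Arid1a, Tet3, Yap1 and Mdm4, each longer than 70824 bases, were held. Usp29 (-3.93) and Pibf1 (-3.71), in the same length group, were lower. The level fell along the same groups, with median means of 144.3 in the shortest and 86.6 in the longest genes, and the part of level in this order was not tested. By transcript length in place of gene length, the shares of lower genes went from 64.4% in the shortest to 47.1% in the longest group. Of 47 genes with a single exon, 25 were lower (53.2%), beside 60.7% of 3253 genes with more exons. Without LOF embryos 9 and 11, 60.9% of the shortest and 28.1% of the longest genes were lower, and with Y-linked reads as a covariate it was 57.9% and 25.9%.

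**Figure D4:**
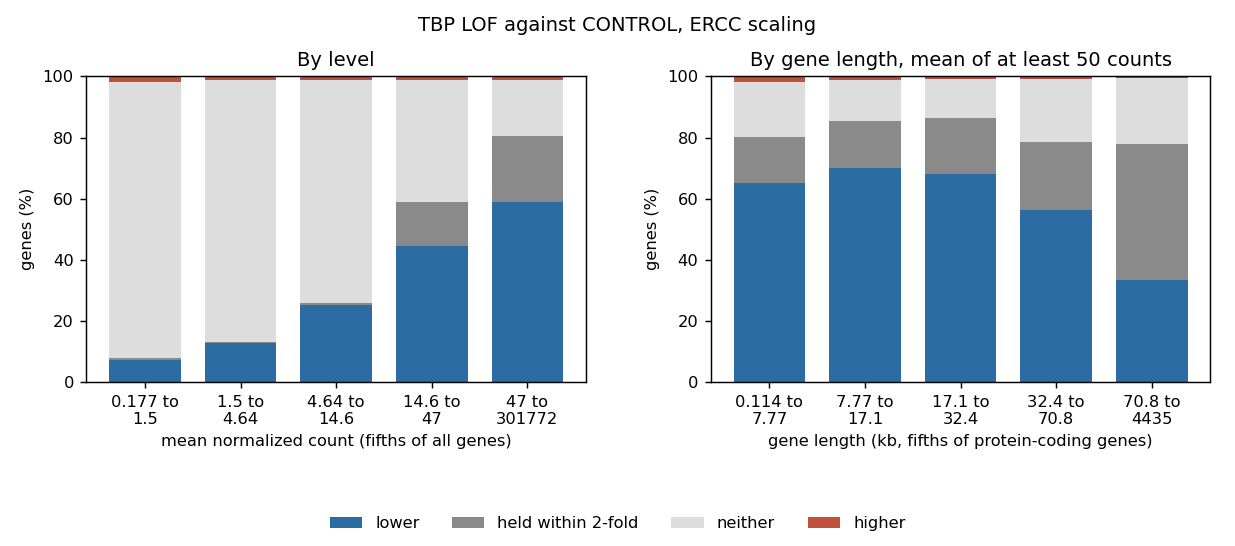
Share of genes (y axis, %) called lower (blue), held within 2-fold (dark grey), higher (red) or neither (light grey) under ERCC scaling, in 5 equal groups of all 18447 genes by mean normalized count (left) and in 5 groups by gene length of protein-coding genes with a mean of at least 50 (right). Lower genes rose from 7.32% to 59.0% with level and were 33.3% of the longest genes, where 44.7% were held.

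By chromosome, fewer X-linked than autosomal genes were lower. Of 469 protein-coding genes on X, 75 were lower (16%) with a median of -0.34, beside 33.8% and -0.74 for 13438 autosomal genes, whose medians ran from -0.90 on chromosome 16 to -0.61 on chromosome 5. With Y-linked reads as a covariate, X and autosomes had medians of -0.77 and -0.77 and 20% and 24.7% lower genes. Among genes with a mean of at least 50, 29.4% of 85 X-linked and 61.7% of 3200 autosomal genes were lower (medians -0.53 and -1.13), and with the covariate 42.4% and 52.1% (-0.95 and -1.15). In these well-expressed genes both gaps were smaller with the covariate, and what remained of them was not tested.

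By biotype, among genes with a mean of at least 10 (8568 genes, 48.8% lower, median -0.90), 49.8% of 7720 protein-coding genes were lower (median -0.92). Antisense genes were like them, with 105 of 215 lower (-1.0), and so were processed pseudogenes (51 of 110, -0.86). Fewer lincRNAs were lower, with 60 of 215 lower (27.9%), 17 higher (7.91%) and a median of 0.04, and under TMM 32 were lower and 94 higher. With Y-linked reads as a covariate 46 of the 215 were lower, and without LOF embryos 9 and 11 it was 54. The median depended on how genes were chosen by level. In the top of 5 equal groups of lincRNAs by mean over all embryos, 28.2% were lower (median -0.02), and by CONTROL mean (from 11.4) 38.3% (median -0.52). The group of all genes with CONTROL means from 17.3 to 59.3 had a median level of 25.5, beside 26.8 for those lincRNAs. In it 44.9% were lower (median -0.87), and in the group above it, from 59.3, 66.2% (-1.23). Of 21 lncRNAs that start from a bidirectional promoter, 15 were lower (median -1.34), with Gm17249 falling from a median of 39.5 to 1.62 (-3.29, SE 0.51). Unprocessed pseudogenes, copies made by gene duplication, had 3 of 30 lower and 3 higher (median 0.07), and miRNA genes 6 of 31 lower and 2 higher (-0.25).

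Single noncoding genes moved as far as coding ones. Rab10os, antisense to the Rab10 locus, had LOF embryos between 0.479 and 7.20 and CONTROL embryos between 20.8 and 80.2 (-4.17, SE 0.46, adjusted p = 9.28e-10). The lincRNA Gm29125 on chromosome 1 rose, with 36.1, 149.7 and 351.0 in LOF against 26.7, 36.0 and 100.7 in CONTROL and 6 LOF embryos above the highest CONTROL embryo (1.84, SE 0.35, adjusted p = 2.94e-05). Snord55, a small nucleolar RNA gene inside a ribosomal protein gene, fell from a median of 42.4 to 4.32 (-2.45). The counting is not stated to use strand, so that reads of antisense and overlapping genes cannot be told from those of their partners.

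**Figure D5:**
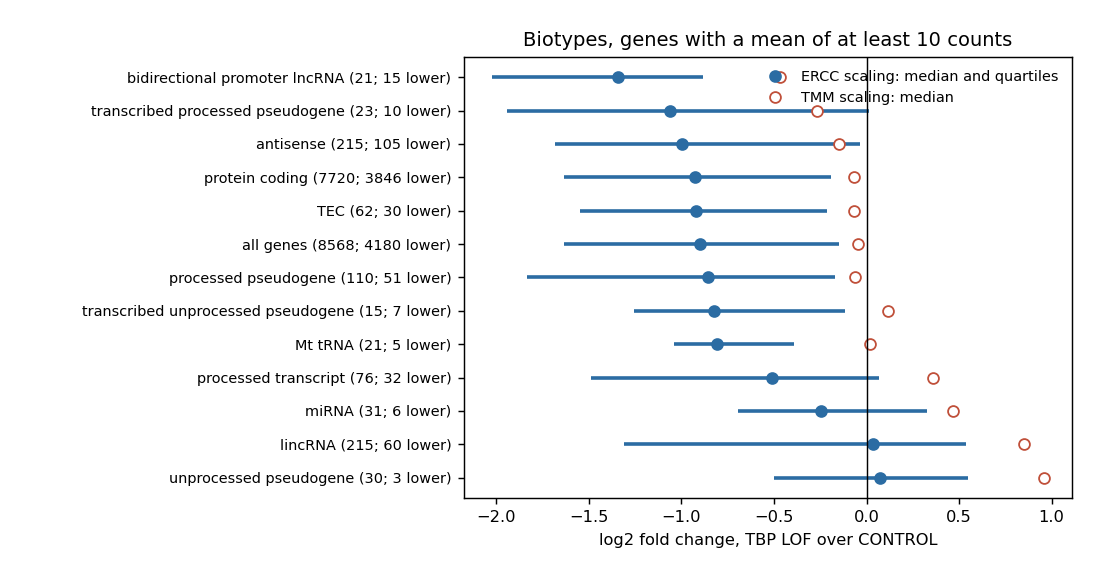
Median log2 fold change (LOF over CONTROL) by biotype for genes with a mean of at least 10 normalized counts, with ERCC scaling (filled points, lines between the quartiles) and TMM scaling (open points), and the number tested and lower beside each name. LincRNAs (0.04, a value that depends on the choice by overall mean) and unprocessed pseudogenes (0.07) lay near 0, and protein-coding genes at -0.92.

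The promoter sequences bear on the target itself, since TBP binds the TATA box. Promoters were taken from RefSeq (GRCm38.p6), from 250 bases before to 50 after the annotated start. The letters TATAAA were searched on the gene's strand and had to lie wholly between 40 and 15 bases before the start. A match is a description of the letters, not a measured site. Of 32851 promoters in the table, 655 held it (1.99%). Of 3300 protein-coding genes with a mean of at least 50, 2693 had a promoter (81.6%), and 2038 of these (75.7%) had a start within 100 bases of the annotation used for naming. Of 28 genes with the motif, 7 were lower (25%), 11 held (39.3%) and 0 higher, with a median of -0.17. Ptp4a1 is in this count with 2 gene IDs, both held and both matched by its symbol, and counted once it leaves 27 genes, of which 7 were lower and 10 held. Of the 2665 without it, 1607 were lower (60.3%) and 586 held (22.0%), with a median of -1.09. Under TMM, 4 of the 28 genes with the motif were lower and 16 higher (57.1%, median 0.67), and of those without it 878 were lower and 589 higher (22.1%, median -0.23). Read the other way, 0.434% of 1614 lower genes and 1.84% of 597 held genes held the motif. The 28 genes are few. With the letters anywhere in the window on either strand, 187 genes had a match, 56.7% of them lower (median -1.06), near the 60.2% of genes without. Genes with 0 to 3 CpG in the 300 bases (110 genes) were lower in 36.4% (median -0.19), those with 4 to 14 CpG (411 genes) in 54.5% (-0.99), and those with 15 or more (2172 genes) in 62.2% (-1.11). The shares higher under TMM in these groups were 47.3%, 26.5% and 20.4%. For the higher genes, under 80% had a promoter in the table, so their share was not used.

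The following stretches, each from 60 bases before to 10 after the start, show 3 genes with the motif that fell, 3 with it that were held, and 2 lower genes without it, with TATAAA in capitals:
Rpl22l1 (chr3:28805448-28805517, plus strand): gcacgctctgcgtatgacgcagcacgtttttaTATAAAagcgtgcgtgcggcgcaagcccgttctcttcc
Stip1 (chr19:7040017-7040086, minus strand): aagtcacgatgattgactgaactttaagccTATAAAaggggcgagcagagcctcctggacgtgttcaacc
Mat2a (chr6:72439547-72439616, minus strand): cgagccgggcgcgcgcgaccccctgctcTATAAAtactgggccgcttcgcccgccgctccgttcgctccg
Taf13 (chr3:108571639-108571708, plus strand): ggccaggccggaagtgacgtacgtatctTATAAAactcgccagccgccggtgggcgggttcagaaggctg
Prdx1 (chr4:116685539-116685608, plus strand): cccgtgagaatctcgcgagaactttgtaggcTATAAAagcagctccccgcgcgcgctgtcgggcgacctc
Oog3 (chr4:144162642-144162711, minus strand): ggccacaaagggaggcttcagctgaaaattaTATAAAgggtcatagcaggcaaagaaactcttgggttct
Rpl14 (chr9:120571457-120571526, plus strand): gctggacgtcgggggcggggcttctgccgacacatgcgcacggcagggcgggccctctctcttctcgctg
Polr2h (chr16:20717766-20717835, plus strand): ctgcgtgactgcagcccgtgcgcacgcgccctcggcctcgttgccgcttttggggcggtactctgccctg

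The first 3 are of genes that fell. Rpl22l1, a ribosomal protein paralog, had 0 to 17.3 normalized counts in LOF and 18.2 to 208.1 in CONTROL (-4.32, SE 0.50, adjusted p = 3.03e-09), with the motif beginning 28 bases before the start. Stip1, a co-chaperone of Hsp70 and Hsp90, changed by -1.47 (medians 227.4 and 605.3) and Mat2a, which makes S-adenosylmethionine, by -1.40 (132.9 and 397.4). The next 3 are of genes that were held, with the motif 29 to 32 bases before the start. Taf13 had 73.7, 151.1 and 174.7 in LOF and 76.0, 179.7 and 203.7 in CONTROL (-0.22, SE 0.28). Prdx1, a peroxidase, had medians of 435.3 and 412.0 (0.16, SE 0.28), and Oog3, an oocyte gene of the Pramel-like family, medians of 692.2 and 411.4 (0.27, SE 0.30). Rpl14 and Polr2h, which fell by 3.29 and 2.87 on the log2 scale, have no exact match in the searched window. The start used for Polr2h lies 161 bases from that of the annotation used for naming, outside the 100-base range given above. Those for Rpl14, Rpl22l1, Stip1 and Prdx1 lie 73, 72, 59 and 55 bases away, farther than the searched window is wide. The windows of these genes may therefore be placed differently. The motif was thus present in genes of both kinds.

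With ERCC scaling, transposable element families were lower at about the rate of genes. Of 909 tested, 261 were lower (28.7%), 1 higher (0.11%) and 58 held, with a median of -0.90. Under TMM 69 were lower (7.59%) and 49 higher (5.39%), with a median of -0.12. Families of the Alu class, which holds the B1 SINEs, were lower in 15 of 16 cases (median -1.53), and B1_Mm had 276.6, 902.3 and 1848 in LOF and 1191, 5055 and 12320.2 in CONTROL (-2.37, SE 0.37). CONTROL embryos 8, 9 and 10 had 2558, 1191 and 2844 of B1_Mm, and the other CONTROL embryos 4897 or more. What set these embryos apart was not tested. In other classes the shares were 45 of 125 for L1, 38 of 92 for ERVL-MaLR, 70 of 270 for ERVK and 19 of 90 for ERVL. Under TMM, 13 of the 16 Alu families were lower and 0 higher, while L1 had 8 lower and 2 higher, ERVL-MaLR 10 and 13, ERVK 21 and 21, and ERVL 3 and 5. B1 and other SINEs lie within genes in large numbers, and whether their reads came from host transcripts was not tested. The higher family, Eulor6D, had few reads (LOF median 1.21, CONTROL median 0, fold change 2.54). With Y-linked reads as a covariate its fold change was 2.20 and its call was lost (adjusted p = 0.16).

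The amount of Tbp RNA and the size of the response were compared across the 9 LOF embryos. Pearson's r of the TMM-scaled Tbp level (log2 of the count plus 1) with the median log2 difference of the embryo was 0.662 (exact permutation p = 0.0493) and Spearman's rho was 0.567 (exact permutation p = 0.121), as the only relation computed. Without embryos 9 and 11, the 2 farthest from the median Tbp level, r was 0.126 (exact permutation p = 0.762) and rho 0.107 (exact permutation p = 0.84). Those 2 embryos were also furthest from CONTROL, so leaving them out selects by the response too. By Tbp level, embryo 11 (45.9) lay next to embryo 2 (46.3), which was kept. The 7 remaining embryos are too few to settle whether Tbp RNA and response are related.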

How the data were processed

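Single embryos were sequenced with a poly(A)-primed full-length protocol that marks 5' ends (Smart-seq+5'), 1 library per embryo. The deposited values are reads per gene, ERCC transcript and TE family. They were taken as estimated counts, since TEcount, which the authors used, can share out multi-mapping reads. They were deposited as whole numbers, so rounding changed nothing. The authors checked reads with FASTQC, trimmed them with Trimmomatic, aligned them with STAR (2.7.11a) to GRCm38 (version and build from the submitters' processing notes), with endogenous Trim21 masked, and counted 5' reads with TEcount on gencode M20. No source used here gives the multi-mapping mode or the strand setting. Counts per single TE insertion were not used.

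Here 42 TE rows that repeat a family were merged into 6 families, and 54809 of 54838 genes received a symbol of gencode M21. Embryos needed 500000 counted reads, 1000 genes, at most 10% mitochondrial and at most 15% ERCC reads, and 1 CONTROL embryo fell below the read minimum. The 19356 features detected (1 read or more) in 25% of embryos or more went into the quasi-likelihood fit of edgeR, where p-values of genes and TE families were adjusted together by the Benjamini-Hochberg method. Size factors were medians of ratios over the 42 ERCC transcripts found in every embryo, so a fold change is per unit of spike-in. The SE is the fold change divided by the root of the F statistic. TMM factors were the second scaling. Lists and classes are described by counts and medians with no test of their own. The members, lists and classes were chosen with earlier results of these data known.

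Named genes were, among protein-coding genes with a mean of at least 50, the 10 lower and 10 higher genes with the smallest adjusted p and the 10 held genes with the highest means. In each list they were the lower and higher members with the smallest adjusted p, the member with the highest mean, and members whose role defines the list. For noncoding biotypes the minimum mean was 20. Members of 2-cell families, the run on chromosome 13, genes with a promoter shown, Nol3, Rpl41, Zar1l, Pramel3, Ptp4a1 and Gtf2a2 were added after their values were seen. Other scalings, DESeq2, other filters, all 19 embryos and the embryo number as a replicate block were run as alternatives. The covariate for Y-linked reads (at least 5, yes or no) and the fit without LOF embryos 9 and 11 were chosen after seeing the data. Tables and tests over embryos were made in Python 3.11.15 with scipy 1.17.1, pandas 2.3.3 and numpy 2.4.6, fits in R 4.3.3 with edgeR 4.0.16 and DESeq2 1.42.0, and plots with matplotlib 3.10.9, and the scripts were tested on simulated data.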

Additional observations from a re-analysis of the deposited data

Results flagged for a closer look

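In 82 groups of 9 embryos (11 embryo quantities and 30 genes, in LOF and in CONTROL), 3 held a value whose gap to the nearest other embryo, divided by the range of the group, was above Dixon's critical value of 0.493. Chance flags about 1 in 20 such groups. LOF embryo 11 had 4166900 counted reads (gap over range 0.644), the highest of its group. LOF embryo 1 had the lowest BC147527 level of the LOF group, 202.617 normalized counts (0.578 on the log2 scale). LOF embryo 7 had the lowest Omt2a level, 3746.58 normalized counts (0.613 on the log2 scale).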

How the results depend on the processing

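Lower genes numbered 5497 with ERCC factors, 2382 with TMM, 2375 with the median of ratios over genes and TE families and 2541 with TMM in DESeq2. Higher genes numbered 258 with ERCC factors and 2437, 2550 and 2680 with those 3 in the same order. Held genes numbered 1379 and then 2188, 2179 and 2228, and the median of all genes was -0.70 and then 0.127, 0.1508 and 0.1342. These scalings take most genes as unchanged. Higher genes also numbered 460 with no filter, 123 with filterByExpr, which tests fewer genes, and 157 with Y-linked reads as a covariate. Held genes numbered 545 with that covariate and 19 with bounds of 0.58 in place of 1 on the log2 scale. Total ERCC reads, DESeq2 with ERCC factors, all 19 embryos and the fit without LOF embryos 9 and 11 gave 5335, 5662, 5555 and 4685 lower genes. The embryo number as a replicate block could be used for 7 numbers that both groups have (14 embryos) and gave 4493 lower and 277 higher genes, against 4394 and 322 in the same embryos without it. The numbers do not pair the embryos: deviations of same-numbered embryos had correlations from -0.05 to 0.13, and 0 of 7 correlated best with their own number. With TMM, the median of ratios and TMM in DESeq2, held genes with a fold change just below 0 were called higher: mt-Cytb (0.77, 0.79, 0.77), mt-Co1 (0.80, 0.82, 0.80), mt-Nd5 (0.79, 0.81, 0.79), Gtf2a1 (0.71, 0.73, 0.71), Gtf2b (0.84, 0.86, 0.84), Rplp0 (0.60, 0.63, 0.60), Cox8a (0.71, 0.74, 0.71), Yap1 (0.74, 0.77, 0.74), Arid1a (0.66, 0.68, 0.66), Tet3 (0.74, 0.77, 0.74), Taf4 (0.67, 0.69, 0.67), Taf10 (0.78, 0.82, 0.78) and Taf13 (0.71, 0.74, 0.72). Rpl41 was called higher with the median of ratios (0.61) and TMM in DESeq2 (0.58), and mt-Atp8 (0.69), Dppa3 (0.56), Kmt2d (0.49) and Tle6 (0.52) with TMM in DESeq2. Genes with few reads seldom pass a test at this depth, so a gene that is neither called nor held may have changed.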
